A study of Mus musculus with 37 samples.

Results

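The genes of this report are Col1a1, Col1a2, Col3a1, Acta2, Timp1, Tgfb1, Lox, Des, Pdgfrb and Reln, 10 genes used to follow hepatic stellate cells and liver fibrosis. They were set by a list of names, not by a rule on measured values, although earlier results of these data were known, from the 21450 genes of the count table. The table held 20 probes for them out of 30146 probes, and 17 of the 20 passed the filter on low counts, so that each gene kept at least 1 tested probe. The 3 probes removed by the filter were the fourth of Col1a2 with 3 counts over all mice, the third of Tgfb1 with 65 counts in 9 mice, and the second of Lox with 32 counts in 4 mice. Probes of a gene are numbered here from the highest total count to the lowest.

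Hepatic stellate cells lie between the sinusoidal endothelium and the hepatocytes, where they store vitamin A. In injured liver they lose this store, take up a contractile myofibroblast form marked by Acta2, and secrete the fibrillar collagens of scar, types I and III. Transforming growth factor beta 1, the product of Tgfb1, is the best known driver of that secretion, platelet-derived growth factor acts on the same cells through Pdgfrb, Lox cross-links the collagen that has been laid down, and Timp1 inhibits the proteases that would remove it. Des and Reln are expressed by quiescent and activated stellate cells alike. Several of these genes are also active in other liver cells, among them the fibroblasts of the portal tracts and the smooth muscle of vessel walls.

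Livers came from wild type Crl:CD1(ICR) mice dosed daily by oral gavage with HFPO-DA, a short-chain fluorinated acid given as its ammonium salt, at 5, 0.5 or 0.1 mg/kg, or with deionized water as control. Adult males were dosed for 70 days before mating and through mating, 84 to 85 doses in all, and comprised 5, 5, 5 and 4 mice as the dose went from 0 to 5 mg/kg. Adult females, older than the males at first dose, were dosed from 14 days before mating through pregnancy and lactation, 53 to 65 doses in all, and comprised 5, 5, 4 and 4 mice in the same order. Sex therefore stood together with age, breeding role and length of dosing, and these cannot be told apart. Transcripts were counted by TempO-Seq, in which pairs of detector oligos are ligated on the RNA and sequenced, from sections of formalin-fixed liver. A section is bulk tissue, so fewer cells of a type and less RNA per cell cannot be told apart.

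Total counts per mouse ran from 2101495 to 10548222 in males and from 7952605 to 13878254 in females, with the 2 lowest male totals at 5 and 0.5 mg/kg. The labels were checked with Cyp4a14, a fatty acid hydroxylase induced by activators of PPARα, whose median rose from 18.5 to 969 CPM (normalised counts scaled to a common library size) in males and from 13 to 1020.3 CPM in females between 0 and 5 mg/kg. Stellate cell markers outside the 10 genes, among them Lrat and Cygb, summed to 349 to 546 CPM in control males and 363 to 675 CPM in males at 5 mg/kg, and to 382 to 590 CPM and 362 to 485 CPM in the corresponding females. Of these 16 marker genes 15 were tested, and every mouse had counts of the list. The list includes Cxcl12, which endothelial cells also make. In 4 of the 8 groups, the controls of both sexes and the males at 0.1 and 0.5 mg/kg, 1 mouse was far above the others in each of the 3 fibrillar collagens, and in 7 of the 8 groups the mouse highest in these collagens was also the highest in smooth muscle markers. Male control 5 and female control 5 were such mice, and results of member genes that rest on them are given below with and without them.

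The promoters of 4 of the genes are shown because their transcripts form the contrasts described below: Col1a2 and Col3a1 varied together over mice, while Acta2 and Tgfb1 carried the low counts at 5 mg/kg in males. Each sequence is the 250 bases before the start site in RefSeq, 5′ to 3′ on the gene's strand, on build GRCm38.p6. The GENCODE annotation starts Col1a2 at 4504814 and Acta2, on the minus strand, at 34255590. By that annotation the Col1a2 window and most of the Acta2 window lie inside the gene. Capitals mark the letters GGGCGG on either strand, and likewise the letters CCAAT and those of TATAAA.
Col1a2, chr6:4505368-4505617, plus strand: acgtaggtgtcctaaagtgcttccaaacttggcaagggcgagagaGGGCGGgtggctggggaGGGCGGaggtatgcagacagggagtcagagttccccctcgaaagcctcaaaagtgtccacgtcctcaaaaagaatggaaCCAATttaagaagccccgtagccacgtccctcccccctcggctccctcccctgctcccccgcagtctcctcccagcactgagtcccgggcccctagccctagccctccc
Col3a1, chr1:45311288-45311537, plus strand: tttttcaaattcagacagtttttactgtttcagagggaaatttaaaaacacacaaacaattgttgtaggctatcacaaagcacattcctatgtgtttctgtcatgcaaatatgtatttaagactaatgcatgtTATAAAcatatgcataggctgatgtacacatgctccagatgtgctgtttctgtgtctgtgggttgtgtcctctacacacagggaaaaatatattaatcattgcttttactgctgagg
Acta2, chr19:34255374-34255623, minus strand: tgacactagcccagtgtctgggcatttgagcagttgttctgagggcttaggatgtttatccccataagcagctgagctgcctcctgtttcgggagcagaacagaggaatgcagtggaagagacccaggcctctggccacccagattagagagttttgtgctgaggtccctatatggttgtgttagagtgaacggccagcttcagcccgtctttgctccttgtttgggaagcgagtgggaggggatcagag
Tgfb1, chr7:25686752-25687001, plus strand: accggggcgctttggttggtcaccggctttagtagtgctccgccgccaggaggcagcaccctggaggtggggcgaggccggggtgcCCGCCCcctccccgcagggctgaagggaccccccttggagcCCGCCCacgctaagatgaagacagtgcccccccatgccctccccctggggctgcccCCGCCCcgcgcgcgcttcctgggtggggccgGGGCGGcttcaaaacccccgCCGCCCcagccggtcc

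The motifs differed between these promoters. Tgfb1 held 5 matches of GGGCGG and Col1a2 held 2, with CCAAT in Col1a2 starting 109 bases before the start site, whereas Col3a1 held TATAAA alone and Acta2 held none of the 3. Among 32851 mouse promoters of the same length GGGCGG was found in 32.7%, CCAAT in 33.8% and TATAAA in 12.4%. The letters AGGTCANAGGTCA, the form of element that PPARα binds, were found in 0.0335% of promoters and in none of the 7 member promoters that the RefSeq table held. A match is a description of the letters in this window and says nothing of binding.

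At 5 mg/kg 1 of the 17 member probes was called in males and none in females, at a false discovery rate of 0.1 in edgeR's quasi-likelihood test over 18570 probes. The probe called was the second of Tgfb1, which fell. Over all probes 12.7% were called in males at that dose, 4.21% raised and 8.49% lowered, and 4.52% in females, 2.26% raised and 2.26% lowered. At 0.5 mg/kg 0 member probes were called in either sex, against 0.625% of all probes in males and 0.113% in females, and 0.1 mg/kg likewise gave 0 called member probes where 0% of all probes were called. Member probes with an unadjusted p under 0.05 numbered 3 in males at 5 mg/kg and 0 in each of the other dose comparisons. In 0 of the 17 probes did the mice at 5 mg/kg lie wholly outside the range of their controls, against 7.58% of all probes in males and 8.71% in females.

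The median log2 change of the 17 probes at 5 mg/kg was 0.46 in males, where all probes had a median of -0.12, and 0.71 in females, where all probes had a median of -0.01. In males 10 probes had a positive log2 change and 7 a negative one, and in females 14 were positive and 3 negative. These differences were measured with little precision: the median standard error of a member probe was 0.875 log2 units in males and 0.863 in females, against 0.724 and 0.709 over all probes. Intervals several log2 units wide therefore stand behind most values below, and an absent call does not show that a gene was unaltered.

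**Figure D1:**
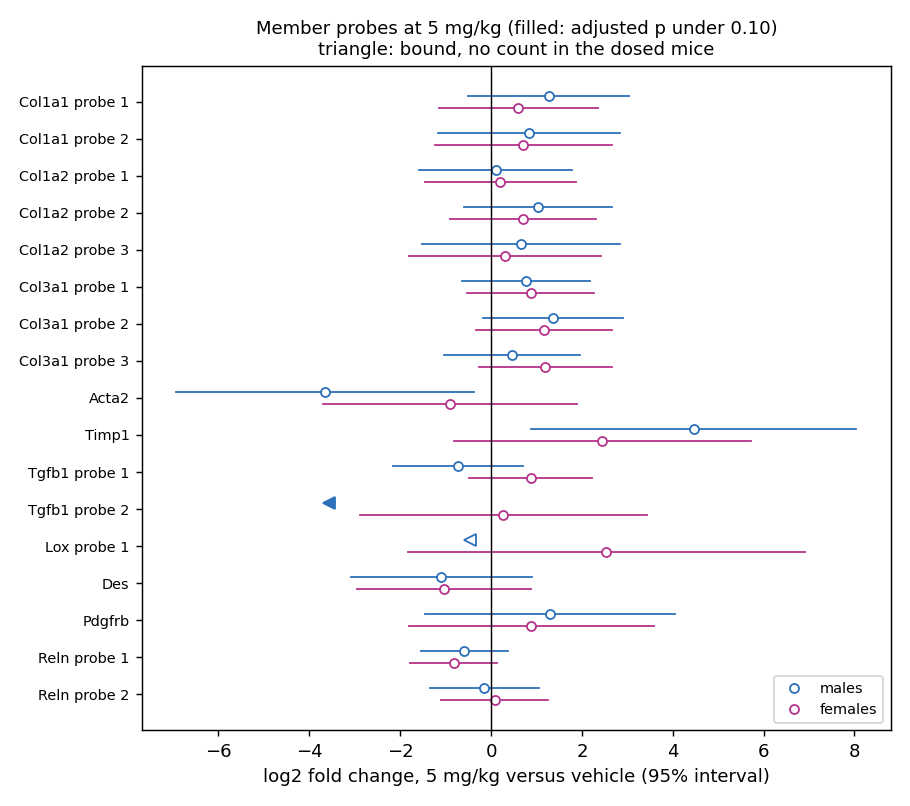
Log2 change of each of the 17 member probes at 5 mg/kg against controls of the same sex, with 95% confidence intervals, filled where the adjusted p was under 0.1. The collagen probes lie at or above 0 in both sexes, and the second Tgfb1 probe in males is the only filled mark. Triangles stand for the second Tgfb1 probe and the first Lox probe in males, which had no count at 5 mg/kg, and are drawn at the bounds of 11.8-fold and 1.38-fold lower given below, with no interval.

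The fibrillar collagens Col1a1 and Col1a2, which form type I collagen, and Col3a1, which forms type III, gave the highest counts of the group. Col1a1, summed over its probes, was at 15, 45.1, 17.8, 66.7 and 203 CPM in the 5 control males and at 161, 190, 159 and 100 CPM in the 4 males at 5 mg/kg. All 4 dosed males were thus above 4 of the 5 controls and below male control 5. Col3a1 had the same arrangement, with 13.9, 21.7, 22.3, 23.4 and 108 CPM in control males and 69.1, 84.3, 77.3 and 40.9 CPM at 5 mg/kg. Col1a2 was at 25.6, 34.2, 15.7, 58.7 and 186 CPM in control males and at 138, 124, 47.3 and 57.5 CPM at 5 mg/kg, with 2 dosed males below the fourth control.

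None of the 8 collagen probes passed the test in males at 5 mg/kg. The first Col1a1 probe had a log2 change of 1.27 with a 95% interval from -0.50 to 3.03 (edgeR adjusted p = 0.411). The second Col3a1 probe came nearest to a call, at 1.36 with an interval from -0.18 to 2.90 and an adjusted p of 0.283. Probes of 1 gene gave differing sizes, as Col1a2 shows with 0.10, 1.03 and 0.66 for its probes 1, 2 and 3. Without male control 5 the log2 changes of the 8 collagen probes lay between 0.95 and 2.57. The second Col3a1 probe then reached 2.18 with an edgeR adjusted p of 0.0976 and was called, and it was the only collagen probe called in any of the 37 fits of this design without 1 mouse.

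In females the collagens were spread still more widely among controls. Col1a1 was at 90.3, 30.1, 44.2, 56.9 and 613 CPM in control females and at 256, 163, 533 and 89.9 CPM in females at 5 mg/kg. 3 of the 4 dosed females were above 4 of the 5 controls, the fourth lay just below female control 1, and none reached female control 5. Col3a1 was at 40.1, 27.1, 35, 32 and 117 CPM in controls and at 125, 77.0, 151 and 51.5 CPM at 5 mg/kg. The log2 changes of the 8 collagen probes lay between 0.20 and 1.20, the highest being the third Col3a1 probe (edgeR adjusted p = 0.610). For the first Col1a1 probe the value was 0.60, with a 95% interval from -1.14 to 2.35, and it moved to -0.02 without female 3 at 5 mg/kg and to 2.17 without female control 5 (edgeR adjusted p = 0.259 for the latter).

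**Figure D2:**
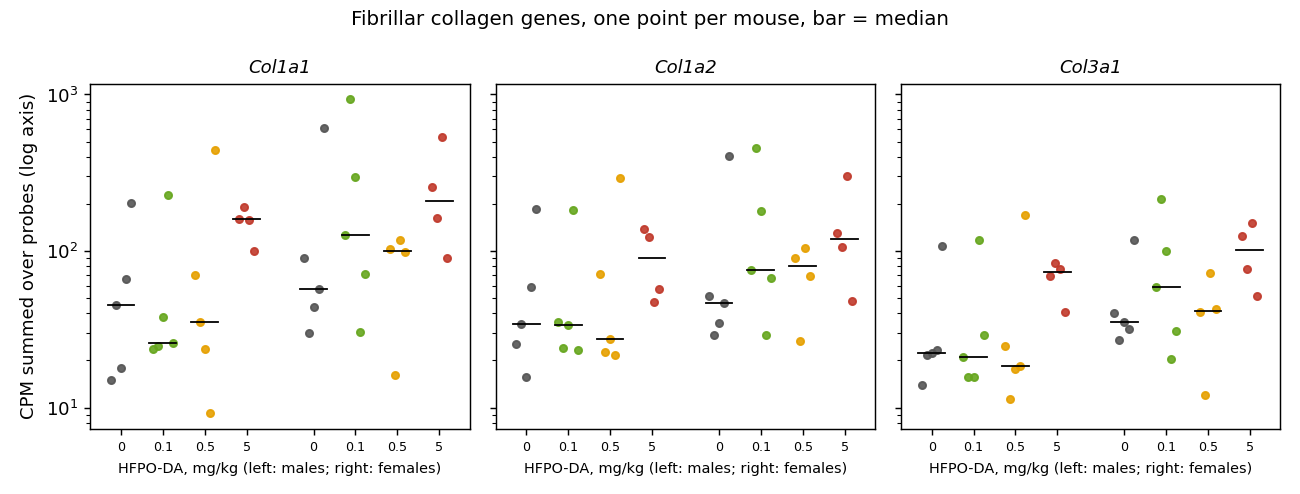
CPM of Col1a1, Col1a2 and Col3a1, each summed over its probes, on a log axis, with 1 point per mouse in the 8 groups of sex and dose and a bar at the median. The controls of each sex and the males at 0.1 and 0.5 mg/kg hold 1 mouse far above the rest, such as male control 5 at 203 CPM and female control 5 at 613 CPM for Col1a1, while the 4 males at 5 mg/kg lie close together between 100 and 190 CPM.

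The lower doses had no arrangement in common. Males at 0.1 mg/kg had 23.8, 24.8, 38, 227 and 25.9 CPM of Col1a1, and males at 0.5 mg/kg had 70.4, 35.1, 23.8, 9.23 and 440 CPM, with 1 male far above the others in each group. Females at 0.1 mg/kg had 126, 931, 296, 30.2 and 71.5 CPM, and females at 0.5 mg/kg had 103, 16.2, 117 and 98.3 CPM. Of the females at 0.1 mg/kg 2 were high, and of those at 0.5 mg/kg none stood apart above, while 3 of 4 were above 4 of the 5 controls. The spread of Col1a1 in control males, 69.5 ± 77.4 CPM (SD, n = 5), exceeded its mean, whereas males at 5 mg/kg had 152 ± 37.9 CPM (SD, n = 4). Over all 17 probes the median log2 change was -0.30 and 0.41 in males at 0.1 and 0.5 mg/kg and 0.48 and -0.27 in females, so it had no common direction over doses.

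The mouse with the most fibrillar collagen in its group, taken as the sum of Col1a1, Col1a2 and Col3a1, was also the highest mouse for some of the other 7 members. Their number was 4, 2, 5 and 0 in males and 5, 2, 2 and 4 in females as the dose went from 0 to 5 mg/kg. After each group's mean was removed, collagen probes of different genes had a median Pearson r of 0.690 over the 37 mice, with a range from 0.374 to 0.825 over 21 pairs. Lox, Des and Acta2 followed the collagens with median r of 0.575, 0.535 and 0.517, the first from a probe counted in 9 mice. Timp1 and Pdgfrb had medians of 0.373 and 0.203, and Reln and Tgfb1 had medians of 0.079 and 0.060. Of 7 pairs tested by permutation within groups, the first Col1a1 probe and Des had r = 0.696 and rho = 0.754 (p = 1e-05 for each, the smallest the permutations can give, adjusted p = 7e-05), and r = 0.673 without the 2 mice farthest from the median. The first Col1a1 probe and the first Reln probe had r = -0.108 and rho = -0.211 (permutation p = 0.530 and 0.240, adjusted p = 0.619 and 0.280).

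The probes most like the first Col1a1 probe in this respect were of Col1a2 (r = 0.767), Car9 (0.730), Tagln (0.714), Col4a6 (0.712) and Synm (0.708). Tagln and Synm are genes of muscle cells, Car9 is a carbonic anhydrase and Col4a6 a basement membrane collagen.

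Marker lists of other cell types were summed in each mouse and set beside the fibrillar collagens. The sum of the smooth muscle markers Myh11, Cnn1, Tagln and Actg2 had r = 0.845 and rho = 0.680 with the fibrillar sum over 37 mice, group means removed, with permutation p of 1e-05, the smallest possible, and 5e-05, and adjusted p of 4e-05 and 2e-04 over 8 lists. Without the 2 farthest mice r was 0.800, and it was 0.864 within males and 0.827 within females. Markers of portal fibroblasts and mesothelium, such as Thy1 and Msln, had r = 0.808 and rho = 0.827 (permutation p = 1e-05 for each, adjusted p = 4e-05 and 8e-05), and markers of cholangiocytes, the cells that line bile ducts, had r = 0.666 and rho = 0.509 (permutation p = 2.5e-04 and 0.0035, adjusted p = 6.67e-04 and 0.00933). The 16 stellate markers had r = 0.101 and rho = 0.071 (permutation p = 0.561 and 0.692, adjusted p = 0.643 and 0.771). Hepatocyte, endothelial, Kupffer cell and lymphocyte markers lay between -0.150 and 0.186, with adjusted p of 0.591 or more for r. Within groups, then, the collagen level moved with the marker sums of smooth muscle, portal fibroblasts and cholangiocytes, and not detectably with the sum of the 16 stellate markers. That sum leaves out the members Des, Pdgfrb and Reln, of which Des followed the collagens and Reln did not detectably. Pdgfrb had a median r of 0.203 with the collagen probes, which was not tested. The collagens are not read here as a measure of stellate cells alone, and the cells they came from were not tested.

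**Figure D3:**
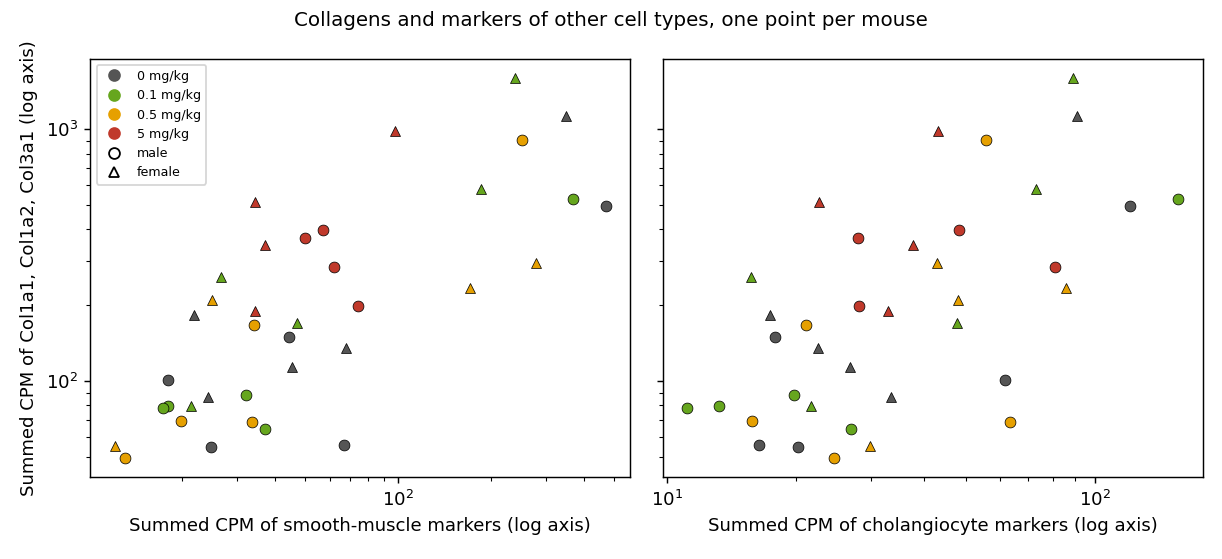
Summed CPM of the fibrillar collagens against summed CPM of the smooth muscle markers and of the cholangiocyte markers, both axes logarithmic, with 1 point per mouse, coloured by dose and shaped by sex. The mice with the most collagen, such as male control 5 and female control 5, also lie to the right, while males at 5 mg/kg hold 198 to 398 CPM of collagen at 50.0 to 74.0 CPM of smooth muscle markers.

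The smooth muscle markers summed to 18 to 469 CPM in control males and 50.0 to 74.0 CPM at 5 mg/kg, and to 21.8 to 348 CPM in control females and 34.3 to 97.4 CPM at 5 mg/kg. With the log2 smooth muscle sum of each mouse as a covariate, a fit chosen after the data had been seen, 6 member probes were called in males at 5 mg/kg, where 13% of all probes were called and 4.53% were raised. The 5 that rose were the first and second Col1a1 probes at 1.43 and 1.63, the second Col1a2 probe at 1.33, and the first and second Col3a1 probes at 1.13 and 1.78 log2 units, with edgeR adjusted p between 0.0200 and 0.0806. In females 3 probes rose in this fit, the second probes of Col1a1, Col1a2 and Col3a1 at 1.57, 1.43 and 1.60 log2 units (edgeR adjusted p = 0.0919, 0.0305 and 0.0623), where 4.84% of all probes were called and 2.41% raised.

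These calls depended on the covariate and on single mice. With the cholangiocyte sum or the portal fibroblast sum in place of the smooth muscle sum 0 collagen probes were called in either sex. With the smooth muscle sum, leaving out female 3 at 5 mg/kg left 0 member probes called and leaving out female control 5 left 1, the second of Col1a2. In males 3 remained called without male 2 at 5 mg/kg, all of them collagens, and 3 without male control 5, of which 2 were collagens. Whether the amount of vessel wall and portal tract in a section had a part in the collagen differences was not tested beyond these fits.

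Acta2, the smooth muscle actin that marks myofibroblasts and is also a main protein of vessel walls, was counted in 28 of the 37 mice, with 1328 counts in all. Control males had 8, 7, 37, 0 and 219 counts, or 0.961, 0.908, 4.95, 0 and 31.1 CPM, and males at 5 mg/kg had 0, 0, 0 and 14 counts, the last equal to 2.16 CPM. 3 of the 4 dosed males thus had no count and the fourth lay inside the range of controls. The log2 change was -3.65, with a 95% interval from -6.93 to -0.38, and edgeR's adjusted p was 0.160. Acta2 was called by DESeq2, with an adjusted p of 0.0853, as 1 of 3 member probes in males, where DESeq2 called 15.8% of the probes it gave an adjusted p. In females DESeq2 called 12.4% of such probes and 0 of the members. Control females had 0.733, 0.819, 0.375, 5.21 and 13.5 CPM and females at 5 mg/kg had 0.700, 1.09, 5.00 and 1.96 CPM, which overlap throughout (log2 change -0.91, edgeR adjusted p = 1). Without the fifth control of each sex the log2 change was -1.52 in males and 0.30 in females (edgeR adjusted p = 0.645 and 1). Smooth muscle marker probes, 8 in number and none of them called, had median log2 changes of -2.60 in males and -1.79 in females, and the contractile proteins, 19 probes, had -1.16 and -0.68. These changes include the fifth controls, at 469 and 348 CPM of the smooth muscle sum, and are not given without them. The median of that sum was 44.3 CPM in control males and 59.4 CPM in males at 5 mg/kg. In females it was 45.4 CPM in controls and 35.7 CPM at 5 mg/kg. The part of the vessel wall in the Acta2 values was not tested.

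Des encodes desmin, an intermediate filament of muscle and stellate cells, and had 2855 counts in 35 mice. Control males were at 4.56, 1.17, 0, 3.85 and 27.4 CPM, and males at 5 mg/kg at 7.55, 2.32, 0 and 3.71 CPM. Control females were at 2.51, 6.14, 7.68, 10.1 and 29.6 CPM, and females at 5 mg/kg at 4.43, 4.10, 8.43 and 4.85 CPM. Without the fifth control of each sex, all 4 dosed females lay within the range of the controls, whereas male 1 at 5 mg/kg lay above the controls and the other 3 males within them. The log2 changes were -1.09 in males and -1.04 in females, and neither passed the test (edgeR adjusted p = 0.569 in males). Without the fifth control the change of Des was 0.52 in males and -0.28 in females (edgeR adjusted p = 0.837 and 1), and the 8 collagen probes then lay between 1.48 and 2.49 in females.

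Timp1, which encodes a secreted inhibitor of matrix metalloproteinases, was nearly absent from control males, with 0, 10, 0, 1 and 0 counts. Males at 5 mg/kg had 0, 29, 21 and 100 counts, equal to 0, 3.20, 7.88 and 15.5 CPM. 3 of the 4 were above every control male, and the other had none. The log2 change was 4.47 with a 95% interval from 0.89 to 8.04 (edgeR adjusted p = 0.113), just outside the threshold. DESeq2 called it with an adjusted p of 0.0598, and edgeR called it without male 1 at 5 mg/kg, without male control 2 or without male 2 at 0.5 mg/kg.

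Females gave a smaller estimate for Timp1 in the same direction. Controls had 0, 0.102, 1.22, 0 and 1.83 CPM and females at 5 mg/kg had 2.45, 8.57, 3.07 and 0 CPM, so that 3 of 4 were above every control female. The log2 change was 2.45, with an interval from -0.82 to 5.71 and an edgeR adjusted p of 0.688. The male and female changes differed by 2.02 log2 units, with an interval from -2.60 to 6.64 (edgeR adjusted p = 0.882). At 0.5 mg/kg 1 male had 66 counts of Timp1, or 10.1 CPM, and it was the same mouse that led its group in collagen.

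Tgfb1, the gene of the growth factor, was read by 2 tested probes that did not move together. The second probe had 0, 0, 39, 10 and 11 counts in control males and 0 in all 4 males at 5 mg/kg. In males at 0.1 and 0.5 mg/kg it had 8 counts and 6 counts, each in 1 mouse, and none in the other 4 mice of the group. With a floor of 3 counts over the group, the level at 5 mg/kg was at least 11.8-fold lower than the 60 counts of the controls, and edgeR's adjusted p was 0.0580. The bound rests largely on male control 3, which held 39 of those 60 counts. Since 2 control males also had no count, the groups overlapped. The call was lost when any of the 4 males at 5 mg/kg, or male control 3, was left out, with edgeR adjusted p between 0.101 and 0.114, and when the probes of Tgfb1 were summed (log2 change -1.22, adjusted p = 0.276).

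The first Tgfb1 probe, with 1742 counts in 36 mice, was the more abundant. It was at 1.92, 8.04, 5.08, 4.12 and 4.41 CPM in control males and at 0, 0.110, 3.75 and 7.57 CPM at 5 mg/kg. 2 of the dosed males were below every control and the others were within them, and the log2 change of -0.73 did not pass the test (edgeR adjusted p = 0.612). In females it was at 3.56, 6.25, 6.65, 3.74 and 2.25 CPM in controls and 6.54, 7.21, 11.9 and 7.15 CPM at 5 mg/kg, a log2 change of 0.87 that did not pass either. The second probe was within the control range in all 4 females but for female 2 at 5 mg/kg (2.83 CPM against at most 1.99), with a log2 change of 0.27. Over the 37 mice the probes had r = -0.024 and rho = -0.050 (permutation p = 0.915 and 0.790, adjusted p the same values), and r = -0.059 without the 2 farthest mice.

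Lox, which cross-links collagen, and Pdgfrb, the receptor for platelet-derived growth factor, were near the lower limit of the assay. The first Lox probe was counted in 9 mice, with 138 counts in all. Among control males it had 7 counts, all in male control 5, and at 5 mg/kg 0 counts, at least 1.38-fold lower by the 3-count floor, a bound that shows how little could be seen at this depth. Its highest value was 3.42 CPM, in female 3 at 5 mg/kg, the mouse with the most fibrillar collagen of that group. Pdgfrb had 525 counts in 29 mice, at 0, 0.260, 1.61, 0 and 2.13 CPM in control males and 0.472, 2.21, 0 and 5.10 CPM at 5 mg/kg. The groups overlapped, and the log2 changes of 1.30 in males and 0.89 in females did not pass the test (edgeR adjusted p = 0.645 in males).

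Reln encodes reelin, a secreted glycoprotein best known from neurons, which in normal liver is made by stellate cells. Its first probe was at 18.7, 8.17, 20.6, 10.8 and 15.2 CPM in control males and 17.9, 9.16, 1.13 and 10.5 CPM at 5 mg/kg. In females it was at 7.75, 14.5, 16, 10.8 and 19.2 CPM in controls and 6.89, 5.93, 7.73 and 10.4 CPM at 5 mg/kg, so that 3 of the 4 dosed females were below every control. Neither change passed the test, with log2 changes of -0.59 in males and -0.82 in females (edgeR adjusted p = 0.511 and 0.557). The second probe did not share the female difference: it was at 8.52, 7.75, 9.92 and 8.68 CPM at 5 mg/kg within a control range of 5.51 to 11.8 CPM (log2 change 0.08). The probes had r = 0.484 and rho = 0.343 over mice (permutation p = 0.0392 and 0.0614, adjusted p = 0.0548 and 0.0860). Unlike the collagens, Reln had no mouse that stood far above its group.

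**Figure D4:**
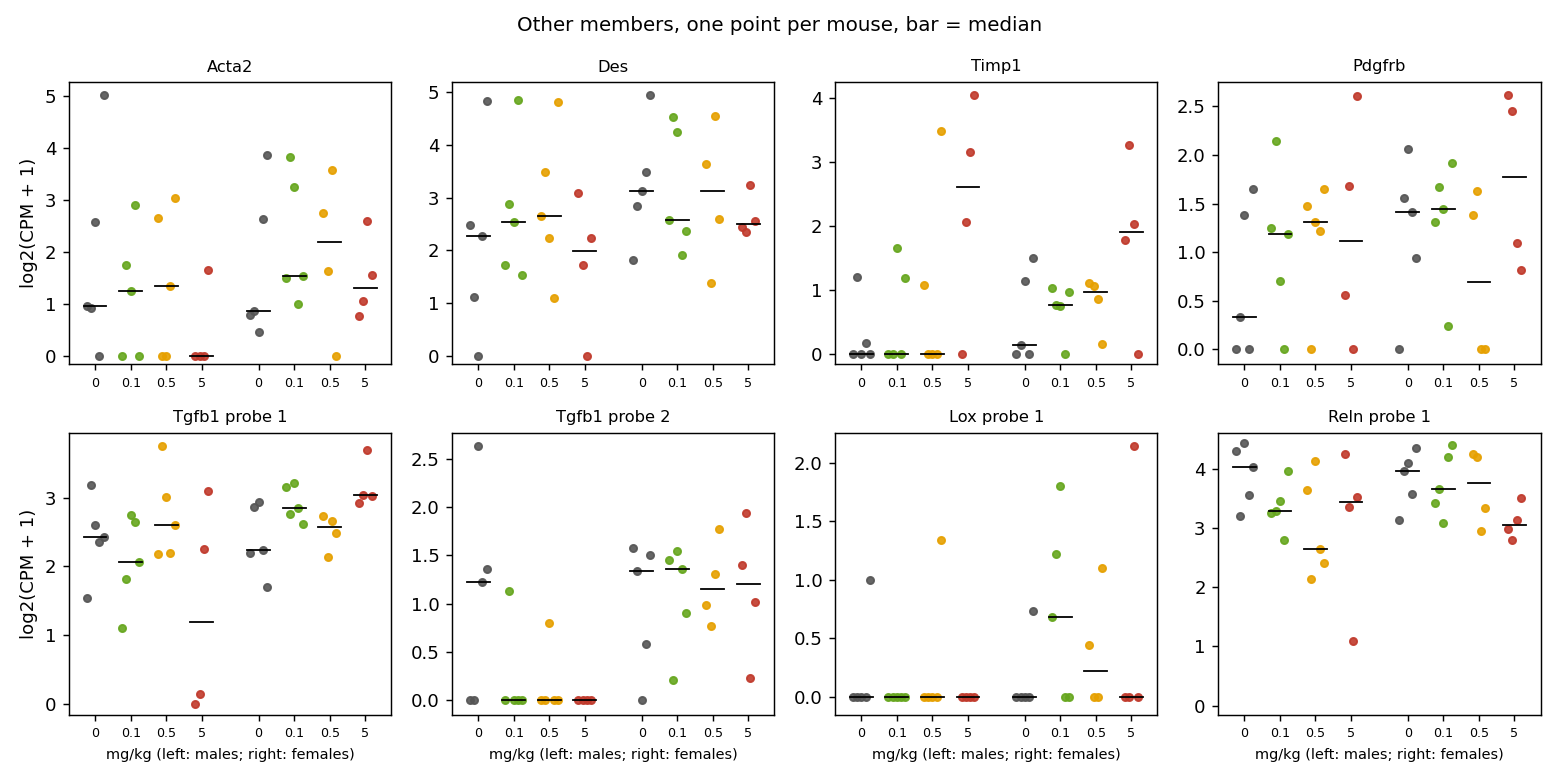
Log2(CPM + 1) of Acta2, Des, Timp1, Pdgfrb, both tested Tgfb1 probes, the first Lox probe and the first Reln probe, with 1 point per mouse in the 8 groups and a bar at the median. Points at 0 are mice without a count, among them 3 of 4 males at 5 mg/kg for Acta2 and all 4 for the second Tgfb1 probe. Timp1 lies above every control of the same sex in 3 of 4 mice at 5 mg/kg in each sex.

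The difference between the male and female changes at 5 mg/kg was tested as an interaction. It was called for 0 of the 17 member probes, against 0.63% of all probes. The second Tgfb1 probe alone had an unadjusted p under 0.05, and its edgeR adjusted p was 0.331. Control males and control females also differed in 0 member probes, against 2.6% of all probes, with a median log2 difference, males minus females, of -0.51 over the members and -0.06 over all probes. The second Tgfb1 probe was low in dosed males of all 3 doses and present in most dosed females, but the test does not separate the sexes.

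The 109 other genes of the pathways around these members, from lists of matrix proteins, collagen processing, matrix proteases, TGFβ and PDGF signalling, contractile proteins, stellate markers and the reelin pathway, were read from the same fit, and 97 of them had a tested probe. At 5 mg/kg 12 of these genes rose and 4 fell in males, with 16 and 6 of 155 probes, and 2 rose and 3 fell in females, with 5 and 5 probes. The shares of probes called can be read beside the 12.7% and 4.52% of all probes. At 0.5 mg/kg Dab1 alone rose, in males. Col4a1, Col4a2, Nid1 and Lamc1, which form basement membranes, were among the 12 that rose in males, and the lists of proteases, PDGF signalling and contractile proteins had no gene called in either sex.

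Type IV collagen, the network-forming collagen of basement membranes, was the clearest of these. The probe of Col4a1 named Col4a1 probe a was at 96.0, 123, 187, 109 and 165 CPM in control males and at 329, 374, 385 and 440 CPM at 5 mg/kg. All dosed males were above all controls, with a log2 change of 1.49 ± 0.25 (SE, edgeR adjusted p = 4.15e-05). In females it was at 117, 77.0, 140, 109 and 175 CPM in controls and at 381, 310, 215 and 144 CPM at 5 mg/kg, a rise of 1.09 log2 units (edgeR adjusted p = 0.00443) with female 4 inside the control range. In males Col4a1 probe c rose by 1.72 and Col4a2, its partner chain, by 1.25 and 2.09 in its called probes.

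Other matrix genes that rose in males at 5 mg/kg were Sparc, a collagen-binding matricellular protein, by 0.99 log2 units (edgeR adjusted p = 0.00484), and Nid1, a basement membrane linker, by 1.48. Lamc1, a laminin chain, rose by 1.72 in Lamc1 probe a, and Col14a1, a fibril-associated collagen, by 1.45 in Col14a1 probe a. Col14a1 probe b had a mean of 3.72 CPM in control males and 5.96 CPM at 5 mg/kg, where 1 male had no count. Sparc was at 98.7, 242, 154, 170 and 207 CPM in control males and at 256, 372, 416 and 337 CPM at 5 mg/kg, above every control. In collagen processing Serpinh1, the collagen chaperone of the endoplasmic reticulum, rose by 1.41 log2 units in Serpinh1 probe a (edgeR adjusted p = 0.0190) and Tgm2, a transglutaminase, by 1.06, while P4hb, a subunit of prolyl hydroxylase, fell by 0.44. Among 15 tested genes of TGFβ signalling Ltbp4, a latent TGFβ binding protein, rose by 1.07. None of Sparc, Nid1, Lamc1, Col14a1, Serpinh1, Tgm2, P4hb and Ltbp4 was called in females, and none had a called difference between the sexes.

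Fn1, the gene of fibronectin, which hepatocytes secrete into plasma in large amounts, fell in both sexes. Fn1 probe a was at 1351, 1688, 666, 1126 and 923 CPM in control males and at 446, 532, 333 and 448 CPM at 5 mg/kg. It was at 1555, 1963, 1507, 2130 and 1863 CPM in control females and at 686, 1031, 655 and 828 CPM at 5 mg/kg. Dosed and control mice did not overlap in either sex, and the log2 changes were -1.39 and -1.17 (edgeR adjusted p = 1.42e-05 and 2.82e-04). Of 8 hepatocyte marker probes 3 were lowered in males at 5 mg/kg and 2 in females, where 8.49% and 2.26% of all probes were lowered. The relation of these markers to the fall of Fn1 was not tested. Fn1 was also the only gene of these lists that differed between control males and control females, by -0.65 to -0.71 log2 units, lower in males, over its 3 probes.

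Among stellate markers outside the 10 members, Cygb, the globin of stellate cells, rose in males by 1.07 log2 units (edgeR adjusted p = 0.0275), from 13 to 19.7 CPM in controls to 23.3 to 43.9 CPM at 5 mg/kg. Cxcl12, a chemokine made by stellate and endothelial cells, fell by 0.83 log2 units among males and by 1.01 among females (edgeR adjusted p = 0.00735 and 0.00130). Males at 5 mg/kg ran from 32.5 to 87.7 CPM, the highest of them above the control median of 79.0 CPM. Females at 5 mg/kg, from 44.4 to 53.3 CPM, lay below all controls, from 74.8 to 124 CPM. Angptl6 fell in females by 0.72, and the first probe of Lhx2, a transcription factor of quiescent stellate cells, had 78 counts in control males and 0 at 5 mg/kg, at least 15.3-fold lower by the 3-count floor. The second Lhx2 probe had a log2 change of 1.02 in males, and Lhx2 was not called when its probes were summed. The median log2 change of this list was 0.05 in males and -0.16 in females, so its genes had no common direction.

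Of the reelin pathway, Dab1, the adaptor that carries the reelin signal inside cells, and Vldlr, a reelin receptor and lipoprotein receptor, were called while Reln was not. Dab1 probe b was at 0.721, 0.519, 0, 0 and 0 CPM in control males and at 25, 22, 13.5 and 19.6 CPM at 5 mg/kg, a log2 change of 6.22 (edgeR adjusted p = 6.78e-04). In control females Dab1 probe b was at 0 to 1.31 CPM and at 5 mg/kg at 4.43, 6.57, 11.4 and 6.98 CPM, and the log2 changes of the 3 Dab1 probes were 4.87, 4.62 and 5.44 (edgeR adjusted p = 0.00490, 0.0132 and 0.0539). In males the other Dab1 probes were not called, with 2.51 for Dab1 probe a and 1.36 for Dab1 probe c (edgeR adjusted p = 0.118 and 0.639). For Dab1 probe b the mice at 5 mg/kg were above all controls in each sex, and in males this probe was called at 0.5 mg/kg as well, at 4.52 (edgeR adjusted p = 0.0792). Vldlr probe a rose by 1.22 in males, and Vldlr probe b had 45 counts there against 0 in controls, at least 25.4-fold higher by the 3-count floor.

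**Figure D5:**
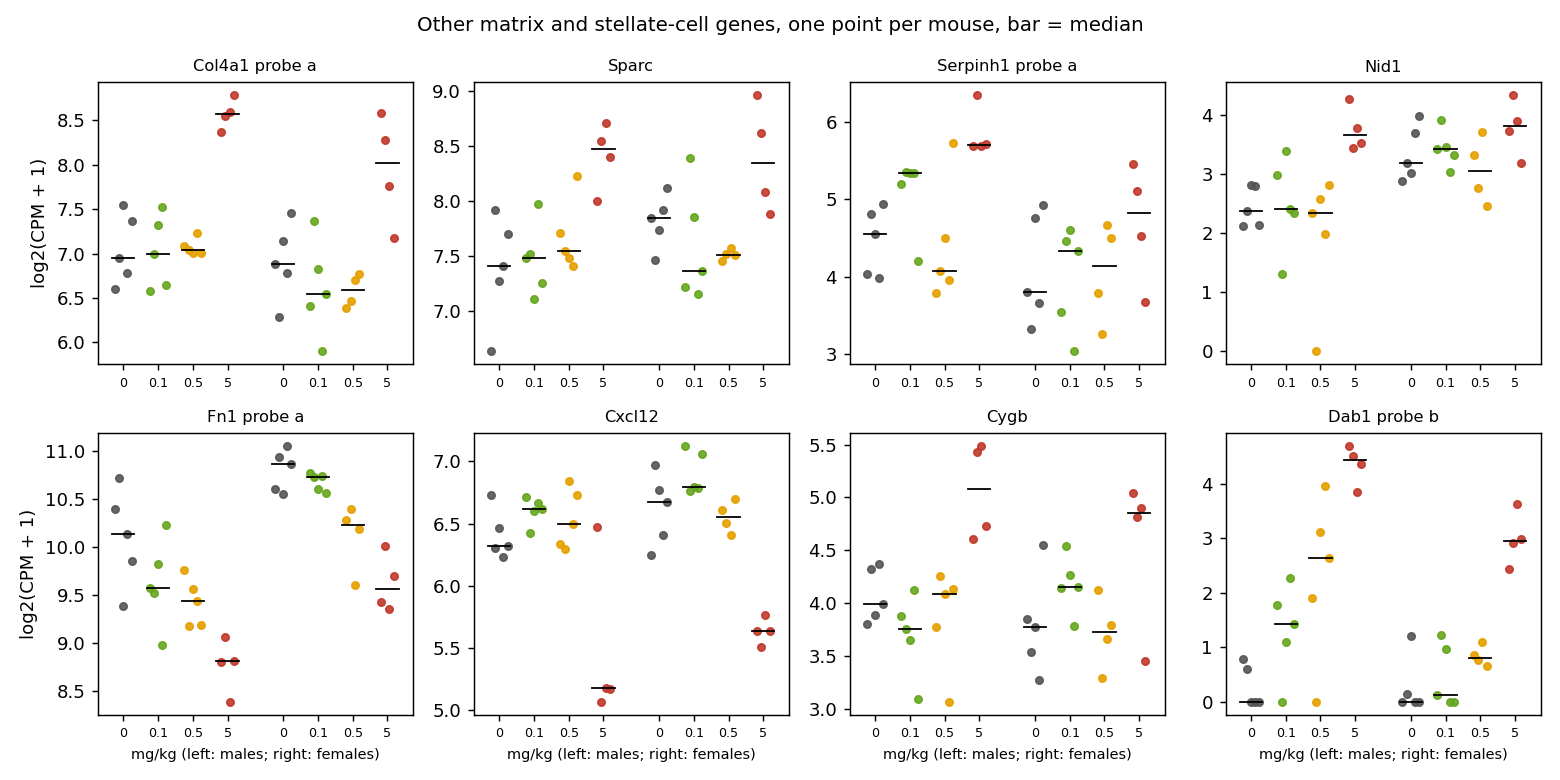
Log2(CPM + 1) of 8 other genes of matrix, collagen processing, stellate cells and the reelin pathway, with 1 point per mouse in the 8 groups and a bar at the median. Col4a1 probe a, Sparc and Dab1 probe b lie above all controls in males at 5 mg/kg, and Fn1 probe a lies below all controls in both sexes, between 333 and 532 CPM in males and 655 and 1031 CPM in females.

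The calls of Col4a1, Fn1, Cxcl12 and Dab1 in both sexes, and of Sparc, Serpinh1 and Cygb in males, were kept in each of 37 fits without 1 mouse, in the fits with the smooth muscle covariate and without 1 mouse, 2 for each sex, and in each of 12 other settings of the analysis. Nid1, Col14a1, Col4a2, Lamc1, Tgm2, Ltbp4, P4hb, Vldlr and Lhx2 in males and Angptl6 in females each lost their call in at least 1 of these. A gene counted as called in a fit where any of its probes was called in the same direction, not necessarily the same probe.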

How the data were processed

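Sections of formalin-fixed liver from 37 mice were assayed by TempO-Seq and sequenced. The authors demultiplexed with bcl2fastq 2.17.1.14 and aligned with Bowtie, per the submitters' processing notes, left out 3 of 40 mice for low depth or probe number, and deposited un-normalized whole-number counts per probe. The genome build is not given in the sources used here. In R 4.3.3, probes were kept by edgeR 4.0.16's filterByExpr over the 8 groups (18570 of 30146), scaled by TMM and tested by the quasi-likelihood test with Benjamini-Hochberg adjustment at 0.1, all mice in 1 fit and each dose against controls of the same sex. The 1757 probes without a count in any mouse dropped out. CPM used TMM-scaled totals. Correlations between probes used log2 CPM with a prior count of 2, and those with marker sums used log2(CPM + 1). Their permutation tests used 100000 permutations within groups. DESeq2 1.42.0, other filters and scalings, summed probes, thinned counts, marker sums as covariates and fits without 1 mouse were alternatives. The test was checked on simulated data. The 10 genes were named with every probe; of the other lists, genes called at 5 mg/kg, up to 6 per list, or at a lower dose. Members and lists were chosen with earlier results of these data known. Mouse numbers are names only, and floors cover counting error only, whereas the intervals of edgeR include variation between mice. Levels of different probes are not compared, since each probe has its own efficiency.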

Additional observations from a re-analysis of the deposited data

Results flagged for a closer look

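Of 78 combinations of a member gene and a group that held counts, 23 had a mouse far above the rest, with a gap that passed Dixon's 95% critical value, and 0 had a mouse far below. Chance flags about 1 in 20 only where values are normally distributed, which CPM near 0 with a few high values are not. The 23 of 78 are therefore not read against that rate. Where 1 mouse alone had a count, the gap spans the whole range and the flag follows from that. Several flags also come from the same mouse. For Col1a1 the flagged mice were at 203 CPM in control males, 227 and 440 CPM in males at 0.1 and 0.5 mg/kg, and 613 CPM in control females. For Col1a2 they were at 186, 184, 293 and 402 CPM in the same groups, and for Col3a1 at 108, 118, 170 and 117 CPM. Each was the mouse with the most fibrillar collagen of its group. Des was at 27.4 CPM in control males, 27.9 CPM in males at 0.1 mg/kg and 29.6 CPM in control females in those same mice. Acta2 reached 31.1 CPM in male control 5, and 2.16 CPM in male 4 at 5 mg/kg, where the other mice had no count. Timp1 reached 1.30 CPM in male control 2 and 10.1 CPM in male 5 at 0.5 mg/kg. Lox, over both probes, stood out at 0.995 CPM in control males, 1.54 CPM in males at 0.5 mg/kg, 1.83 CPM in control females and 3.42 CPM in females at 5 mg/kg, each time against mice without a count. The part of vessel wall and portal tissue in these mice was not tested beyond the fits with marker sums.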

How the results depend on the processing

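In males at 5 mg/kg 1 member probe was called. The count was 0 at a threshold of 0.05, with a mean of at least 10 counts, with each sex fitted apart and with probes summed per gene, 3 with no filter and 3 with DESeq2 (Timp1, Acta2 and the second Tgfb1 probe in both). It was 1 in thinned counts, but then Timp1 (adjusted p = 0.0240), the second Tgfb1 probe not being tested. Among fits added after the data were seen it was 6 with the smooth muscle covariate and 2 with the portal fibroblast covariate (Acta2 and the second Tgfb1 probe). The 37 fits without 1 mouse gave 0 to 2, and the smooth muscle fit without male 2 at 5 mg/kg or without male control 5 gave 3 each. Acta2 was called without male 4 at 5 mg/kg (edgeR adjusted p = 0.0419), where the other dosed males had no count, at least 38.7-fold lower by the 3-count floor over the group. This bound rests largely on male control 5, at 31.1 CPM of Acta2 where the next control male was at 4.95 CPM. The fitted log2 value of the second Tgfb1 probe was -6.86 with an edgeR adjusted p of 0.0580, above 0.05, and ran from -7.21 to -5.73 without 1 mouse. These fits set counts against dosed males without any, depend on the prior count and measure no fold. The bound for the fold is at least 11.8-fold lower, and it rests largely on male control 3. With probes summed the log2 change of Tgfb1 was -1.22. In females at 5 mg/kg 0 were called, 3 with the smooth muscle covariate, 0 in each fit without 1 mouse, with the covariate 0 without female 3 at 5 mg/kg and 1 without female control 5, and the first Col1a1 probe ran from -0.021 to 2.17 without 1 mouse. The count was 0 in each of the other comparisons under every alternative run, although DESeq2 gave no adjusted p for 12 member probes at the middle dose and 5 at the highest dose in females. Of the other fibrosis genes 22 probes were called in males, 13 at a threshold of 0.05, 11 with each sex apart and 15 to 26 without 1 mouse, and with the smooth muscle covariate 30 without male 2 at 5 mg/kg. In females 10 were called, 18 with each sex apart, 5 with probes summed and 8 to 12 without 1 mouse. The causes were not tested. Depth limits Lox, Pdgfrb, Timp1, Acta2 and the second Tgfb1 probe, which had few counts per mouse. No paired analysis was possible because the labels give the mice no numbers shared between groups.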
